A study of Mus musculus with 4 samples.

Results

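Ghrl and Sst, the genes of the stomach hormones ghrelin and somatostatin, were followed in RNA-seq libraries of mouse pylorus. They were taken by their Ensembl IDs from a gene table of 2701 genes, so the 2 members are 2 of 2701. The knockout genotype, Lats1fl/fl;Lats2fl/fl;Lgr5-CreER (Lats1/2 KO, 2 libraries), carries floxed alleles of the Hippo pathway kinases Lats1 and Lats2 and a tamoxifen-inducible Cre named for Lgr5, a gene of gland-base stem cells. Its counterpart, Lats1fl/fl;Lats2fl/fl (WT, 2 libraries), has the same floxed alleles without the Cre. Both groups are C57BL/6 and were sampled 8 weeks after tamoxifen; no ages are stated. Recombination starts in cells that express the Cre, and the 10 µm frozen sections held every cell type of the tissue, so each level averages over recombined and other cells. The labels do not say whether the libraries of a group came from separate animals, so p-values measure the spread between these libraries, which may be technical.

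Ghrelin is made by X/A-like endocrine cells of the gastric epithelium, is joined to a fatty acid by the acyltransferase MBOAT4, and acts through the receptor GHSR to stimulate feeding and growth hormone release. Somatostatin is made by D cells, which lie beside gastrin cells in the pyloric glands. It acts through the SSTR receptors to restrain gastrin, histamine and acid secretion. Both peptides are cut from longer precursors and stored in dense-core granules.

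Ghrl (ENSMUSG00000064177) lies on the minus strand of chromosome 6, from 113716119 to 113719880 in GRCm38, with 7 annotated transcripts, and its main transcript has 5 exons and 527 bases. Sst (ENSMUSG00000004366) lies on the minus strand of chromosome 16, with a single annotated transcript of 2 exons and 721 bases. The deposited table places Sst from 23889581 to 23890844 and GENCODE M21 places it from 23889573 to 23890958. The coding bases of both mature hormones are shown because they are the part of each transcript that becomes the hormone. They were read 5′ to 3′ from the GENCODE M21 transcripts. In ghrelin, residues 24 to 51 of a 117-residue precursor, the capitals mark the codon of the serine that carries the fatty acid. In somatostatin-14, residues 103 to 116 of a 116-residue precursor, the capitals mark the codons of the pair of cysteines joined by a disulfide bond.
Ghrl, 84 bases in 2 exons between 113719182 and 113719360: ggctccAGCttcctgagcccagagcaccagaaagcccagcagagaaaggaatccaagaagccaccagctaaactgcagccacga
Sst, 42 bases from 23889732 to 23889773: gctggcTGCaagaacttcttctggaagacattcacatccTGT

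Counts were summed over all transcripts of a gene. Transcript Ghrl-205 has 3 coding bases fewer than Ghrl-201, and the counts do not tell these forms apart. An unnamed plus-strand gene model, Gm44033, covers 169 bases of Ghrl's exons. The strand setting of the counting is not stated, so reads from that model cannot be told apart from Ghrl reads. Of the 15 annotated genes within 100 kb of Ghrl and the 4 within 100 kb of Sst, none had a row in the table used here.

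The upstream regions of both genes are shown because both transcripts differed between the genotypes in the same direction. Each is a 300-base window from RefSeq (GRCm38.p6), from 250 bases before an annotated start to 50 bases after it, on the minus strand. For Ghrl, the most upstream of 4 annotated starts was taken. Capitals mark matches on either strand to CATTCC (the core bound by TEAD factors, the DNA-binding partners of YAP and TAZ), TGACGTCA (the cyclic AMP response element) and TATAA (the TATA box).
Ghrl, chr6:113719862-113720161: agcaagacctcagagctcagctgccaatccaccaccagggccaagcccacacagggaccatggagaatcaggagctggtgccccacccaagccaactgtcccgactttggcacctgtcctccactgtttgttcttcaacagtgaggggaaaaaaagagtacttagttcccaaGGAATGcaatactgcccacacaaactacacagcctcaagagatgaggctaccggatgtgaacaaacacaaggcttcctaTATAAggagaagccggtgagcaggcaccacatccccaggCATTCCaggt
Sst, chr16:23890795-23891094: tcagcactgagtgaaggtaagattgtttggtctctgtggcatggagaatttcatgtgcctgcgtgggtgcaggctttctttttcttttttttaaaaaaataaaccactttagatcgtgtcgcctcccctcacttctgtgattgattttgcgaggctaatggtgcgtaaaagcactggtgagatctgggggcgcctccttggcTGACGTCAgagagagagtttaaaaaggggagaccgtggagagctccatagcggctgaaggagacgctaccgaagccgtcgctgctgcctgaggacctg

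The Ghrl window held CATTCC at 2 places and TATAA at 1 place. The TATAA match begins 1 base after the RefSeq start that sets the window, and 30 bases before the start of the GENCODE gene. One of the CATTCC matches begins 109 bases before that GENCODE start and the other lies 9 bases after it. The Sst window held TGACGTCA once, from 48 to 41 bases before the RefSeq start, and neither other motif. GENCODE begins the Sst transcript upstream of that match. Among 32851 windows of the same length, CATTCC was found in 14.7%, TGACGTCA in 1.79% and TATAA in 24.9%. These are matches of letters, and no factor binding was measured.

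The table held only genes with an adjusted p of at most 0.05 in the authors' DESeq2 test, out of about 13138 tested (a number inferred from the p-values). Listed genes summed to between 13413629 and 14225132 counts in the Lats1/2 KO libraries and to 14315314 and 17689207 in the WT libraries. Levels below are normalized counts, that is counts divided by the authors' size factors, and fold changes are from edgeR on the same factors. Lats1 had 942.5 and 1129 normalized counts in Lats1/2 KO 1 and 2, against 2152 and 1974 in WT 1 and 2, a direction that matches the labels. Lats2 was looked for as well and had no row in the table used here, so it could not check the labels. The surface mucous genes Gkn2 and Gkn1 had the highest levels of all listed genes, and Pdx1, a homeobox gene of the distal stomach and duodenum, had 1297 and 1140 normalized counts in the Lats1/2 KO libraries and 1829 and 2193 in WT.

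Ghrl rose in the Lats1/2 KO pylorus. It had 272 and 1648 reads in Lats1/2 KO 1 and 2, against 33 and 31 reads in WT 1 and 2. After scaling this was 246.3 and 1288 normalized counts in Lats1/2 KO and 41.6 and 34.2 in WT. Both Lats1/2 KO libraries lay above both WT libraries, and Lats1/2 KO 2 stood far above Lats1/2 KO 1. The 95% exact Poisson intervals, which cover counting error alone, were 217.9 to 277.3 and 1227 to 1352 normalized counts in Lats1/2 KO and 28.7 to 58.5 and 23.2 to 48.5 in WT. The WT libraries thus agree within counting error and the Lats1/2 KO libraries do not. The group means were 767.2 ± 737 in Lats1/2 KO and 37.9 ± 5.27 in WT (SD, n = 2 each), 20.2-fold higher, with a log2 fold change of 4.34 ± 0.85 (SE). The SD of the Lats1/2 KO group is almost as large as its mean.

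Sst rose as well, by less. It had 79 and 431 reads in Lats1/2 KO 1 and 2, against 17 and 35 reads in WT 1 and 2. Its normalized counts were 71.5 and 336.9 in Lats1/2 KO and 21.5 and 38.6 in WT. The groups did not overlap, and Lats1/2 KO 2 was again the highest library. Poisson intervals were 56.6 to 89.2 and 305.8 to 370.2 in Lats1/2 KO and 12.5 to 34.4 and 26.9 to 53.7 in WT, so the lower Lats1/2 KO library lay above both WT libraries by more than counting error. Group means were 204.2 ± 188 in Lats1/2 KO and 30.0 ± 12.1 in WT (SD, n = 2 each), 6.80-fold higher, with a log2 fold change of 2.76 ± 0.82 (SE). In sections of whole tissue, more hormone cells and more hormone RNA per cell cannot be told apart.

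**Figure D1:**
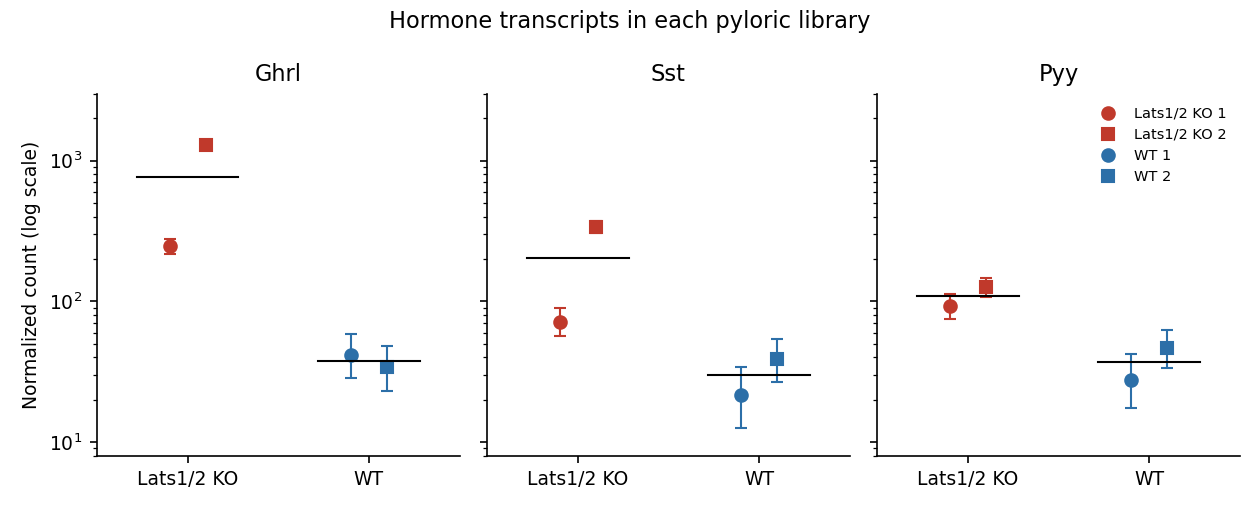
Normalized counts (log axis) of Ghrl, Sst and the third listed gut hormone gene, Pyy, in each library; circles are replicate 1, squares replicate 2, horizontal lines group means and bars 95% exact Poisson intervals. Ghrl reaches 1288 and Sst 336.9 in Lats1/2 KO 2, while Pyy is at 92.4 and 125.8 in the Lats1/2 KO libraries.

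In the authors' deposited table, Ghrl had a log2 fold change of 2.76 ± 0.46 and an adjusted p of 1.4e-07, and Sst had 1.60 ± 0.47 and 0.00661. For both genes the deposited fold change is smaller than the one from edgeR. DESeq2 run anew on the authors' size factors gave 4.34 and 2.76, the same as edgeR. Ghrl held the 9th largest deposited log2 fold change among listed genes and Sst the 97th. By the log2 fold change from edgeR with no filter on low counts they ranked 10th and 40th. By deposited adjusted p they ranked 131st and 1440th. Both were called higher. Of the genes the authors tested, 20.6% were called in either direction and 8.81% were called higher. Each had both Lats1/2 KO libraries above both WT libraries. That held for 1158 listed genes (42.9%), which are all those called higher, so it does not set the hormones apart.

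Over the listed genes alone, edgeR's quasi-likelihood test gave Ghrl an adjusted p of 0.0126 and Sst one of 0.0220. That test called 42.9% of listed genes higher and 57.1% lower, nearly every gene, since all had already passed the authors' threshold, so its calls do not set the hormones apart. When the adjustment covered the inferred 13138 genes, the edgeR adjusted p was 0.0612 for Ghrl and 0.107 for Sst, both above 0.05. That adjustment counts every unlisted gene as having a larger p, so it gives the highest adjusted values these p-values allow. Nearly all listed genes lost their call under it, so the loss does not set the hormones apart either. An exact two-sided permutation test over the 4 libraries gave p = 0.333 for each gene, the smallest value that 2 against 2 allows.

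Lats1/2 KO 2 decided how large both changes were. Without it, the log2 fold change was 2.70 ± 0.45 (SE) for Ghrl and 1.24 ± 0.64 for Sst, with edgeR adjusted p-values of 0.0702 and 0.122. Without Lats1/2 KO 1 they were 5.08 and 3.48. Leaving out a WT library gave 4.20 to 4.49 for Ghrl and 2.40 to 3.25 for Sst. The direction was the same in each of these fits. Without Lats1/2 KO 2, edgeR called 4 listed genes higher and 1 lower in all, so that the lost calls were shared by nearly every listed gene.

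**Figure D2:**
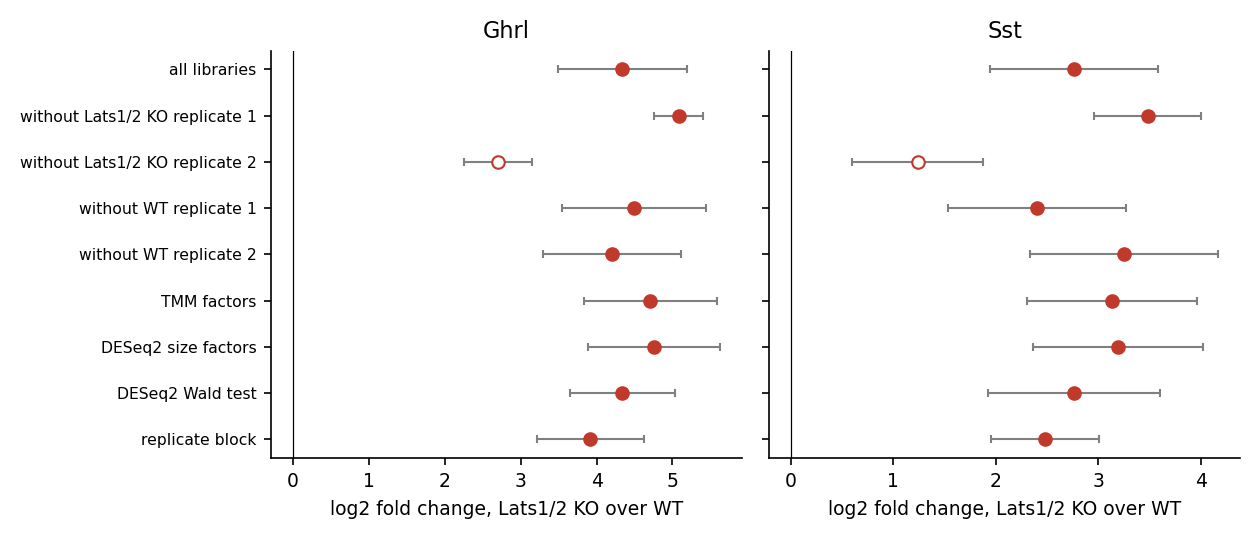
Log2 fold change of Ghrl and Sst (Lats1/2 KO over WT) with its SE, with all libraries, with each library left out and under other scalings or tests; filled points have an adjusted p under 0.05 over the listed genes. The lowest values, 2.70 and 1.24, are those without Lats1/2 KO replicate 2.

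The libraries of the Lats1/2 KO group differed by about the same factor for both hormones. Ghrl was 5.23-fold higher in Lats1/2 KO 2 than in Lats1/2 KO 1 (95% exact binomial interval 4.60 to 5.97, counting error only). For Sst the factor was 4.71 (3.70 to 6.07). On the log2 scale these are 2.39 and 2.24, against a median absolute difference of 0.19 over all 2701 listed genes and a 95th percentile of 0.84. By this ratio Ghrl ranked 11th and Sst 12th, and 15 genes, both hormones among them, had a log2 ratio above 2 (of normalized count + 1, as for the median and percentile). Between the WT libraries, the log2 ratio of WT 2 to WT 1 was -0.28 for Ghrl and 0.85 for Sst, where the median absolute difference was 0.23.

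**Figure D3:**
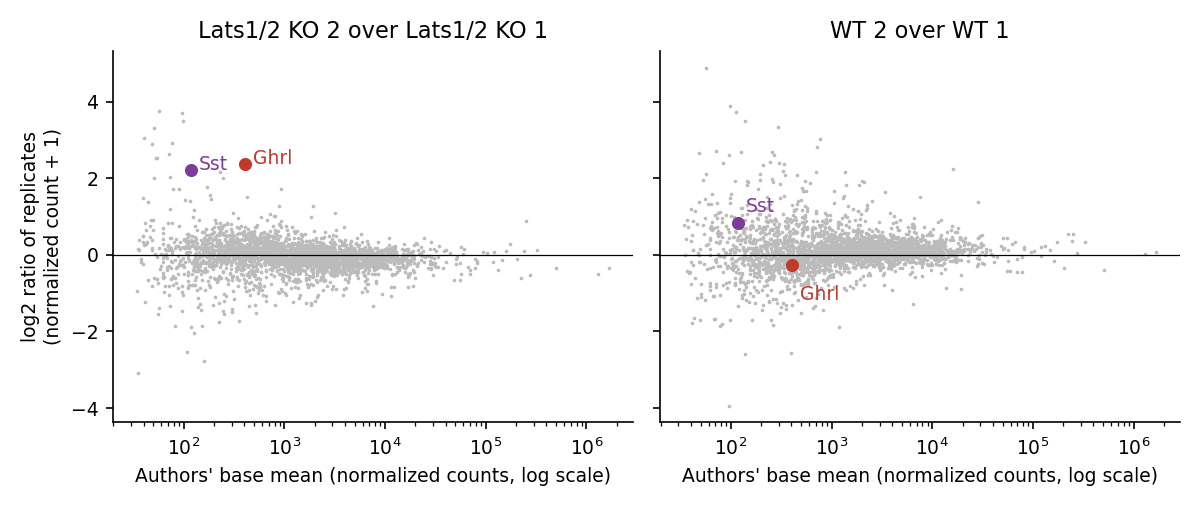
Log2 ratio of replicates (normalized count + 1) against the authors' base mean (log axis) for each listed gene (grey), in Lats1/2 KO on the left and WT on the right. Ghrl and Sst lie at the upper edge between the Lats1/2 KO libraries, with log2 ratios of 2.39 and 2.24 before the 1 is added, and within the cloud between the WT libraries.

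The balance of both hormones within a library needs no scaling. Ghrl made up 77.5% (95% exact binomial interval 72.8 to 81.8) and 79.3% (77.5 to 81.0) of Ghrl plus Sst reads in Lats1/2 KO 1 and 2. In WT 1 and 2 it was 66.0% (51.2 to 78.8) and 47.0% (34.6 to 59.7). The Lats1/2 KO shares were alike and above both WT shares, but the interval of WT 1 reaches into theirs. Ghrl reads per Sst read were 3.44 and 3.82 in Lats1/2 KO and 1.94 and 0.886 in WT. The mean log2 ratio was 1.86 ± 0.11 in Lats1/2 KO and 0.39 ± 0.80 in WT (SD, n = 2 each), a difference of 1.47 with an exact two-sided permutation p = 0.333, again the smallest possible. The difference was 0.90 without WT 2 and 2.03 without WT 1, and 1.39 and 1.54 without Lats1/2 KO 2 and without Lats1/2 KO 1.

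**Figure D4:**
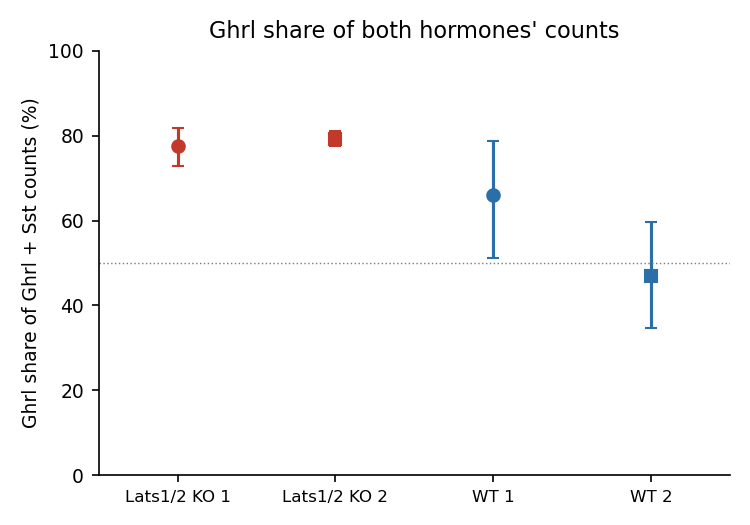
Ghrl reads as a percentage of Ghrl plus Sst reads in each library, with 95% exact binomial intervals; the dotted line marks equal reads. Lats1/2 KO 1 and 2 are at 77.5% and 79.3%, WT 1 and 2 at 66.0% and 47.0%.

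Levels of different genes can be compared only per length. Per kb of annotated exon (1079 bases for Ghrl over all its transcripts, 721 for Sst), Ghrl had 228.2 and 1194 normalized counts in Lats1/2 KO 1 and 2 and 38.6 and 31.7 in WT 1 and 2. Sst had 99.2 and 467.2 in Lats1/2 KO and 29.8 and 53.5 in WT. On this scale Ghrl was the higher of the pair in both Lats1/2 KO libraries and in WT 1, and Sst was the higher in WT 2. The ratio of Ghrl to Sst in WT 1 had a 95% exact binomial interval of 0.702 to 2.48, so the order there is within counting error. With the 527 bases of Ghrl's main transcript in place of 1079, Ghrl was the higher in all 4 libraries, at 4.71 and 5.23 times the Sst level in Lats1/2 KO and 2.66 and 1.21 times in WT (0.723 to 2.02 in WT 2, again within counting error).

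Of 17 gut hormone genes, 3 had a row, Ghrl, Sst and Pyy, and all 3 rose. That is 17.6% of the list, beside 20.6% of all genes tested, so the number listed does not set the hormone genes apart. List shares, here and below, are of all genes in a list, since how many of them were tested is not known. The denominators are therefore unlike. Of all genes tested 8.81% were called higher, and the difference from that share was not tested. Their median log2 fold change, 2.76, is that of Sst itself, and 2 of the 3 genes are the members. It therefore says nothing of gut hormones as a group. Pyy encodes peptide YY, a hormone of endocrine cells that slows gut emptying. It had 102 and 161 reads in Lats1/2 KO 1 and 2, against 22 and 42 reads in WT 1 and 2. Its normalized counts were 92.4 and 125.8 in Lats1/2 KO and 27.8 and 46.3 in WT, or 1.55 ± 0.45 (SE) higher on the log2 scale. The authors' deposited table puts its adjusted p at 0.0287. The edgeR adjusted p was 0.0210 with all libraries, 0.0529 without Lats1/2 KO 1, 0.100 without Lats1/2 KO 2, 0.0591 without WT 1, 0.0198 without WT 2 and 0.102 over the inferred 13138 genes. Its groups did not overlap either, as for all listed genes called higher. The Lats1/2 KO libraries differed by a factor of 1.36 (1.06 to 1.76) for Pyy. The other 14 hormone genes, among them Gast, which encodes gastrin, had no row, so nothing is said of them.

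Most genes of the endocrine machinery also had no row. None of 16 general enteroendocrine markers, such as Chga, Chgb and Neurod1, was listed, so the hormones' rise cannot be set beside a marker of endocrine cell number. Of 28 granule and processing genes, 2 had a row and both fell, 7.14% of the list beside 20.6% of all genes tested (11.7% called lower). Ptprn2, which encodes phogrin, a membrane protein of dense-core granules, had 3811 and 2078 normalized counts in Lats1/2 KO and 5429 and 5196 in WT (log2 fold change -0.85 ± 0.29, SE; -0.48 without Lats1/2 KO 2). Syt7, a calcium sensor of exocytosis, had 402.0 and 426.0 in Lats1/2 KO and 936.4 and 558.1 in WT (-0.85 ± 0.29; -0.43 without WT 1). Both values depended on the scaling. With TMM factors and with DESeq2 size factors from the listed genes they were -0.50 and -0.46 for each gene. The edgeR adjusted p was then 0.160 and 0.179 for Ptprn2 and 0.194 and 0.245 for Syt7. All listed genes had been called changed, and by construction these factors centre them, which raises every log2 fold change by 0.36 and 0.41. A smaller fall with these factors, here and for genes named below, follows from that shift. It is no test of a single gene.

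Among 25 transcription factors of the endocrine lineage, 1 rose and 1 fell, which is 8.00% of the list, beside 20.6% of all genes tested. Sox4, an SRY-box factor, had 325.0 and 87.5 normalized counts in Lats1/2 KO 1 and 2 and 42.9 and 16.5 in WT, a log2 fold change of 2.80 ± 0.80 (SE) that was 1.56 without Lats1/2 KO 1. Its higher Lats1/2 KO library was replicate 1, the reverse of Ghrl and Sst. Pdx1 fell, by 0.72 ± 0.17 on the log2 scale. With TMM factors and DESeq2 size factors its log2 fold change was -0.36 and -0.31, with edgeR adjusted p-values of 0.0885 and 0.122.

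For ghrelin's processing, receptor and source cells, 2 of 18 genes (11.1%, beside 20.6% of all genes tested) had a row. Lypla1, a thioesterase reported in rat to remove ghrelin's fatty acid, fell, with 3025 and 2879 normalized counts in Lats1/2 KO and 5103 and 4380 in WT. Its log2 fold change of -0.68 was -0.33 with TMM factors and -0.28 with DESeq2 size factors, where the edgeR adjusted p was 0.0887 and 0.133. Cd36, a fatty acid transporter, rose. It had 134.0 and 606.5 in Lats1/2 KO 1 and 2 and 93.4 and 81.6 in WT, and its log2 fold change of 2.08 was 0.61 without Lats1/2 KO 2. The acyltransferase gene Mboat4 and the receptor gene Ghsr had no row.

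Of 15 somatostatin receptor and D cell genes, Lepr alone had a row. It encodes the leptin receptor and rose, with 350.4 and 424.4 normalized counts in Lats1/2 KO and 171.6 and 111.4 in WT. None of the receptor genes Sstr1 to Sstr5 and none of 14 genes of gastric acid control, gastrin and the proton pump included, was listed.

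Genes with the most similar pattern were found as the 5 smallest distances between log2(normalized count + 1) profiles over the 4 libraries, each centred on its own mean, among genes with a base mean of at least 20. For Ghrl they were Selp (distance 0.70), Prss22 (0.78), Tnni3 (1.39), Esrrg (1.40) and Ackr1 (1.46), and Sst came 16th at 1.67. Selp encodes the endothelial adhesion molecule P-selectin. It had 33.5 and 261.0 normalized counts in Lats1/2 KO and 10.1 and 4.41 in WT, and its log2 fold change of 4.35 was 2.21 without Lats1/2 KO 2. Prss22, a serine protease gene, had 38.9 and 110.2 in Lats1/2 KO and 6.31 and 3.31 in WT.

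For Sst the nearest were Dio2 (distance 0.35), Cxcl1 (0.51), Gm12840 (0.69), Tnni3 (0.77) and Adam8 (0.79), and Ghrl came 126th. Dio2, which encodes the deiodinase that activates thyroid hormone, had 34.4 and 216.5 normalized counts in Lats1/2 KO and 12.6 and 25.4 in WT, and its log2 fold change of 2.71 was 0.84 without Lats1/2 KO 2. The neutrophil chemokine gene Cxcl1 had 49.8 and 207.9 in Lats1/2 KO and 8.83 and 24.3 in WT (log2 fold change 2.94, and 1.57 without Lats1/2 KO 2). Without Lats1/2 KO 2 the log2 fold changes of Tnni3, Ackr1 and Gm12840 were 1.16, 1.34 and 1.11, in place of 3.30, 3.63 and 2.06. All of the genes named here as nearest were highest in Lats1/2 KO 2. That peak, and the smaller fold changes without that library, were given by choosing genes close to profiles that peak there. With 4 libraries a small distance says that a pattern is alike in these libraries and no more.

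**Figure D5:**
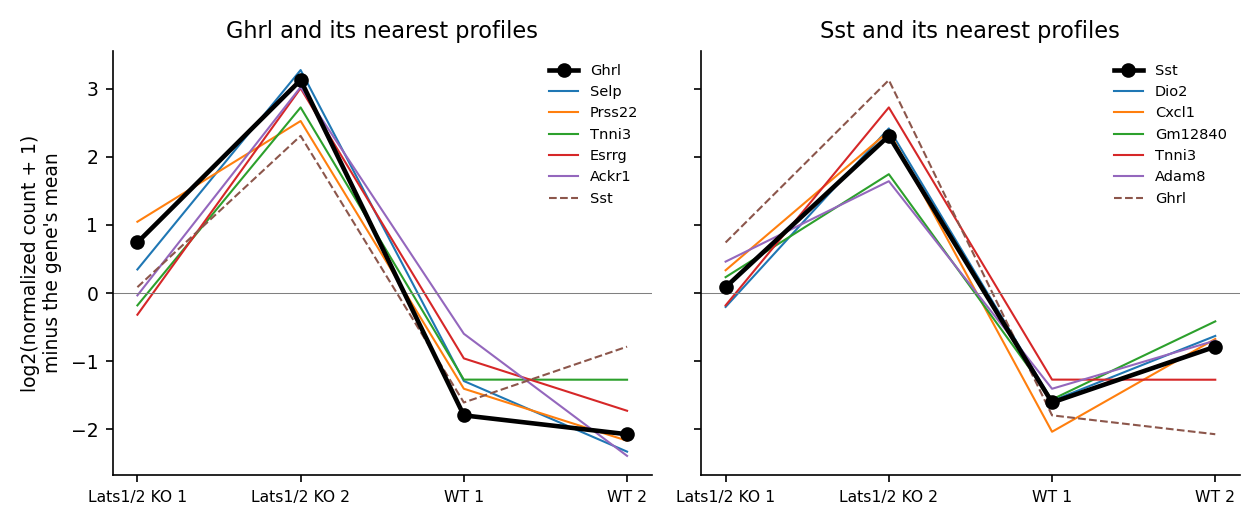
Profiles over the 4 libraries of Ghrl and Sst (black) and of their 5 nearest genes, as log2(normalized count + 1) minus each gene's mean; lines join the libraries for tracing only and the dashed line is the other hormone. Every profile peaks in Lats1/2 KO 2, which the choice of nearest genes implies.

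Some genes typical of other cell types were also high in Lats1/2 KO 2, while others of the same lists were not. Selp and Ackr1 were among the genes nearest Ghrl, so their peak in Lats1/2 KO 2 was given by that choice. In a list of 13 endothelial genes, written after the values had been seen, 3 had a row (23.1%, beside 20.6% of all genes tested). Selp and Ackr1, a receptor of venules (15.4 and 135.2 normalized counts in Lats1/2 KO, 10.1 and 2.21 in WT), were high in Lats1/2 KO 2, while Kdr, a general endothelial receptor, had 334.1 and 338.4 in Lats1/2 KO and 461.9 and 698.2 in WT (log2 fold change -0.79, -0.46 without WT 2 and -0.42 with TMM factors). The 3 genes summed to 383.0 and 734.7 in Lats1/2 KO and 482.1 and 704.8 in WT. In a fibroblast list written at the same point, 7 of 15 had a row (46.7%, beside 20.6% of all genes tested), 4 higher and 3 lower. Their summed levels were 7774 and 7860 in Lats1/2 KO and 10368 and 13813 in WT, most of each from Col3a1 and Col1a2. Mmp3 had 29.0 and 337.6 in Lats1/2 KO and 20.2 and 5.52 in WT (log2 fold change 3.85, and 1.19 without Lats1/2 KO 2), whereas the collagen gene Col3a1 fell, with 4364 and 3539 in Lats1/2 KO and 5869 and 7445 in WT (log2 fold change -0.75, and -0.39 with TMM factors). With those factors the edgeR adjusted p was 0.184 for Kdr and 0.0752 for Col3a1. No listed member of these lists was at 0 in any library, and the part of such cells in the hormones' levels was not tested.

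Ghrelin cells are most frequent in the acid-secreting corpus, and both hormones are also made in the pancreas and duodenum, so markers of these tissues were read beside them. Of 14 parietal cell genes of the corpus, 4 had a row (28.6%, beside 20.6% of all genes tested), of which 3 fell and 1 rose. Their summed levels were 70019 and 65200 in Lats1/2 KO and 102803 and 99593 in WT. Most of each sum was Car2, with 64277 and 59981 in Lats1/2 KO and 94488 and 91367 in WT. With TMM factors the log2 fold change was -0.22 for Car2 and -0.14 for Slc9a4, in place of -0.58 and -0.50. The edgeR adjusted p was then 0.189 and 0.329. With the same factors Kcnj15 had -1.34 in place of -1.71, with an edgeR adjusted p of 0.00692. The riser, Esrrg, was among the genes nearest Ghrl. It had 16.3 and 171.9 in Lats1/2 KO and 10.1 and 5.52 in WT (log2 fold change 3.59, and 1.06 without Lats1/2 KO 2). The proton pump genes Atp4a and Atp4b had no row. Of 12 islet genes, Pdx1 alone was listed. Of 18 acinar genes, Cela1 rose and Cela2a was at 3.62 and 0.782 normalized counts in Lats1/2 KO and 6.31 and 215.1 in WT. Of 18 intestinal genes, Fabp2 and Vil1 fell (Vil1 by 1.25 on the log2 scale, and by 0.83 without WT 2) and Lyz1 rose. Their summed levels were 13764 and 10053 in Lats1/2 KO and 24209 and 42516 in WT, most of each from Vil1. No enteric neuron or glia gene was listed. The part of tissue sampled beside the pylorus in the hormones' levels was not tested.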

How the data were processed

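Poly(A) RNA of pyloric cryosections was sequenced in 4 libraries (2 per genotype) from both ends at 75 bp, with strand-marked libraries, per the labels' protocols. TopHat2 2.1.1, HTSeq and DESeq2 with genome build GRCm38 were used, per the submitters' processing notes. In the deposited table each gene has a raw read count for every library. Per the file headers it also holds the authors' base mean (the average normalized signal), log2 fold change with SE, Wald score, p-value and adjusted p-value. GENCODE M21 gave symbols for 2698 of 2701 IDs. The table's starts lie 1 base below the annotation's, so 1 was added.

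The authors' size factors were recovered from base means and counts, with rebuilt base means within 0.0119% of the deposited ones. Fold changes are from edgeR 4.0.16 (quasi-likelihood test, genotype as the one factor, filterByExpr, Benjamini-Hochberg at 0.05). Each edgeR SE was back-calculated as the absolute log2 fold change over the square root of the test's F statistic. The fit was tested on simulated data with the same dispersion for all genes and most genes unchanged, unlike this table. DESeq2 1.42.0, TMM scaling, other filters, a replicate block and leaving out each library were alternatives. "Rose" and "fell" follow the authors' calls. The members, lists and tests were chosen with earlier results of these data known. Named are both members, listed members of the gene lists (the 6 with the smallest adjusted p where more were listed, of which some are given as counts), each member's 5 nearest genes and Lats1. The surface mucous list had 8 of 11 genes listed, all lower. The chief cell list had 1 of 9 (lower), the neck mucous list 1 of 8 (higher) and the tuft list 1 of 12 (lower). The leukocyte list had 1 of 12 (higher) and the smooth muscle list 0 of 10. An adipocyte list, added later with the endothelial and fibroblast lists, had 4 of 11 (2 higher, 2 lower). Beside these lists and those above, 20.6% of all genes tested were called, 8.81% higher and 11.7% lower.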

Additional observations from a re-analysis of the deposited data

How the results depend on the processing

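Ghrl and Sst were higher in Lats1/2 KO under every alternative run, and the edgeR adjusted p exceeded 0.05 in 2 settings. Leaving out each library gave log2 fold changes of 2.70 to 5.08 for Ghrl and 1.24 to 3.48 for Sst, the lowest without Lats1/2 KO 2. With the adjustment over the inferred 13138 tested genes, an alternative chosen after seeing the data, the log2 fold changes stayed at 4.34 and 2.76 while the adjusted p-values became 0.0612 and 0.107. The number of listed genes called higher, 1157, was 3 under that adjustment and 4 to 1038 with a library left out. The number called lower, 1541, was 1 under that adjustment, 1 to 1416 with a library left out, 494 with TMM factors and 432 with DESeq2 size factors from the listed genes; by construction these factors centre the listed genes and shift all log2 fold changes up by 0.36 and 0.41. The ratio of Ghrl to Sst per length in the Lats1/2 KO group, 2.43, was 4.97 with the length of Ghrl's main transcript, since a shorter length raises a level per kb. With the replicate block the log2 fold changes were 3.92 for Ghrl and 2.48 for Sst and the counts 1084 higher and 1451 lower, so it changed neither call. The labels give no meaning to the shared numbers, and deviations of same-numbered libraries correlated at -0.162 across genes. Crossed numbers, a block added after seeing the data, gave 1142 higher and 1518 lower. WT reads of Sst (17 and 35) limit the precision of its fold change.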

Other observations

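By the ratio of Lats1/2 KO 2 to Lats1/2 KO 1, 10 listed genes ranked above Ghrl, in order Gm12888, Hp, Mmp3, Esrrg, Ackr1, Tnni3, Selp, Nrn1, Dio2 and Cxcl2, all named after their values were seen. Hp, which encodes the haemoglobin-binding protein haptoglobin, had 24.5 and 333.0 normalized counts in Lats1/2 KO and 7.57 and 23.2 in WT, and its log2 fold change of 3.51 was 0.65 without Lats1/2 KO 2. Cxcl2, a neutrophil chemokine gene, had 29.0 and 171.9 in Lats1/2 KO and 1.26 and 7.72 in WT (log2 fold change 4.41, and 2.61 without Lats1/2 KO 2). Nrn1, which encodes neuritin, fell, with 2.72 and 20.3 in Lats1/2 KO and 79.5 and 115.8 in WT (log2 fold change -3.04, and -5.10 without Lats1/2 KO 2). All 10 had base means below that of Ghrl.

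Lpl, which encodes lipoprotein lipase, was higher together with Cd36, at 332.3 and 704.2 normalized counts in Lats1/2 KO and 111.1 and 100.4 in WT. The adipocyte genes Cidec and Pparg were lower, Cidec with 1155 and 791.7 in Lats1/2 KO and 2396 and 3433 in WT. The 4 genes summed to 5877 and 6550 in Lats1/2 KO and 9940 and 13137 in WT. Most of each sum was Pparg, with 4256 and 4448 in Lats1/2 KO and 7339 and 9522 in WT, so the sums do not show the rise of Lpl and Cd36.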
